A study of Mus musculus with 9 samples.

Results

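The genes described here are 9 mouse genes of megakaryocytes and platelets that are also transcribed at low to moderate levels in part of the hematopoietic stem cell (HSC) pool, where they mark stem cells primed for the platelet lineage. They are Vwf, Pf4, Itga2b, Itgb3, Gp1bb, Gp5, Gp9, Selp and Clu, taken by symbol from 47643 genes in the count table, and all 9 were among the 18205 genes that passed the filter on low counts. RNA-seq was performed on long-term HSCs (LT-HSCs) of 3 genotypes, with 3 libraries each. WT;Mx1-Cre donors (WT) carried Cre alone, δKO donors were Pik3ca lox/lox;Pik3cb lox/lox;Pik3cd-/- without Cre, and TKO donors had the alleles of δKO donors together with Mx1-Cre, so that TKO and δKO cells differed in Mx1-Cre as well as in the loss of Pik3ca and Pik3cb. Pik3ca, Pik3cb and Pik3cd encode the class IA PI3K catalytic subunits p110α, p110β and p110δ. Mx1-Cre is induced by interferon in blood cells and in other tissues. C57BL/6 donor marrow (CD45.2+) had been transplanted into lethally irradiated B6.SJL recipients of 6 to 8 weeks of age, every group had received 2 injections of 250 μg of pIpC 48 hours apart, which induces Cre through interferon, and Lin-cKit+Sca1+Flk2-CD48-CD150+ cells were sorted 4 weeks later from marrow pooled over 7 recipients per group. The replicates are described as biological, but the material was pooled within a group, so the p-values below measure the spread between these libraries, which may be partly technical.

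Megakaryocytes are the marrow cells that shed platelets. Platelets stick to damaged vessel walls when the GPIb-IX-V receptor binds von Willebrand factor, and they bind to each other when the integrin αIIbβ3 binds fibrinogen. Their alpha granules store adhesive proteins and chemokines that are released on activation. HSCs with high Vwf or CD41 have been described as biased toward the platelet lineage.

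Platelet genes were present in LT-HSCs of all 3 genotypes, but no member was called different in any of the 3 comparisons by edgeR's quasi-likelihood test at an adjusted p under 0.05 and a change of more than 2-fold. Among all genes tested, that rule called 0.00549% as higher in TKO than in WT, 0% as higher or lower in TKO than in δKO, and 0.00549% as higher in δKO than in WT. At an unadjusted p under 0.05, 2 members (Selp and Gp9) were higher in TKO than in WT, against 1.68% of all genes, and none was lower, against 2.5%. In TKO against δKO, 1 member (Selp) was higher and 1 (Itgb3) was lower, against 4.6% and 5.56% of all genes. In δKO against WT no member reached an unadjusted p of 0.05, against 7.01% of all genes in either direction. Selp was the member that separated TKO from both other genotypes in every library.

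**Figure D1:**
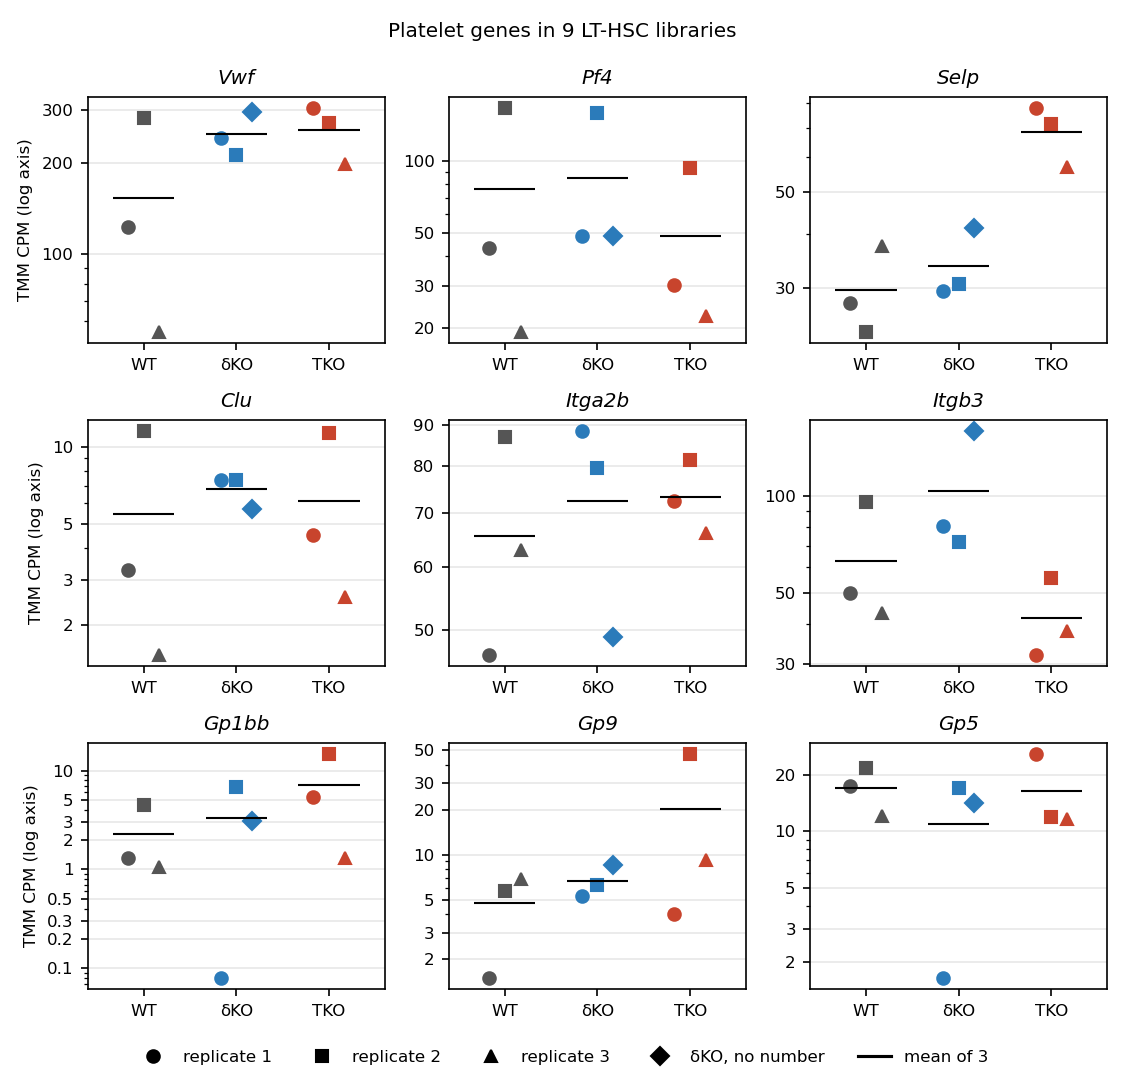
Abundance of the 9 genes in each of 9 LT-HSC libraries, in CPM (counts scaled to a common library size, with TMM factors) on a log axis; symbols give the replicate number and bars the mean of 3 libraries. Selp lies between 56.9 and 78 CPM in the 3 TKO libraries and at or below 41.2 CPM in the other 6, whereas Pf4 is highest in replicate 2 of each genotype.

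Library totals ran from 31300343 to 60386097 counts and genes with at least 1 count from 18180 to 22703. Pik3cd was lower on average in both genotypes that lack it (WT 116 ± 20.5, δKO 66.9 ± 26.6 and TKO 72.6 ± 1.25 CPM, mean ± SD, n = 3). Pik3cb was lower in TKO (31 ± 4.77 CPM) than in WT (56.2 ± 10.1 CPM). In δKO it was at 101, 33.2 and 68.7 CPM, so that δKO 2 lay within the TKO range (25.5 to 33.9 CPM). Pik3ca counts were 57.1 ± 10.1, 59.2 ± 25.4 and 60.2 ± 7.59 CPM in WT, δKO and TKO. Kit and Hlf, the most abundant of 10 LT-HSC markers, were at 429 to 949 and 374 to 615 CPM, and Slamf1, which encodes the gating antigen CD150, at 16.4 to 159 CPM. Cd48 and Flt3, which encode antigens that the gate excludes, were at 5.82 to 23.2 and 7.06 to 115 CPM. The sum of 10 neutrophil markers, led by Mpo and Elane, differed most, from 170 CPM in TKO 1 and 277 CPM in δKO 1 to 12900 CPM in WT 1. The sums over 10 erythroid markers (led by Car1 and Epor) ran from 4.97 to 157 CPM, over 8 macrophage markers (Vcam1 and Csf1r) from 5.9 to 172 CPM, over 7 B cell markers (Ighm and Cd79b) from 8.96 to 158 CPM, over 8 mast cell and basophil markers (Mcpt8 and Cpa3) from 2.56 to 30.2 CPM, and over 6 T cell markers (Lck and Cd4) from 1.32 to 51.5 CPM, with Cd3e, Cd3g and Cd8a at 0 in every library. In bulk RNA, fewer cells with a transcript and less transcript per cell cannot be told apart.

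Sequence upstream of the start site was in the reference for 6 of the 9 members (Gp1bb, Gp9, Gp5, Itga2b, Pf4 and Selp). Gp9 and Gp5, subunits of 1 receptor, had no clear correlation over the 9 libraries (r = -0.0996 and rho = -0.55, exact permutation p = 0.672 and 0.133). Shown are the 250 bases before the start of both, of Selp, which separated TKO from the rest, and of Pf4, highest in level per length. They are from RefSeq (GRCm38.p6), 5′ to 3′ on the strand of the gene, for Selp at chr1:164115014-164115263 (plus strand), Pf4 at chr5:90772185-90772434 (plus), Gp9 at chr6:87777820-87778069 (plus) and Gp5 at chr16:30310782-30311031 (minus), and none of the 4 windows overlaps an annotated exon. Capitals mark matches on either strand to GATAA or GATAG, the core bound by GATA factors, and to GGAAG, a core bound by ETS factors such as FLI1.
Selp: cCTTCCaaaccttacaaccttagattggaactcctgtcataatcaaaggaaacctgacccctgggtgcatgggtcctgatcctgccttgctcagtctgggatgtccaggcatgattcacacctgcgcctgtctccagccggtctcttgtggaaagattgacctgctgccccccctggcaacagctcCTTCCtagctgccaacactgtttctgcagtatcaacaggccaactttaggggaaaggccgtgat
Pf4: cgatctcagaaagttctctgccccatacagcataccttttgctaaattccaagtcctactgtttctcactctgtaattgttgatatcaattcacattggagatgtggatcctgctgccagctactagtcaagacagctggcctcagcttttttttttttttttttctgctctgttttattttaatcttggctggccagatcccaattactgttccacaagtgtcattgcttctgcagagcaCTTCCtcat
Gp9: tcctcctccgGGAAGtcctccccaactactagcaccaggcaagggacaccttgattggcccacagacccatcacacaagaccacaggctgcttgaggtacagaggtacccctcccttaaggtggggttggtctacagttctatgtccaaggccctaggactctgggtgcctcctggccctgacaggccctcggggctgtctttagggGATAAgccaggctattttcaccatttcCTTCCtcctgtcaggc
Gp5: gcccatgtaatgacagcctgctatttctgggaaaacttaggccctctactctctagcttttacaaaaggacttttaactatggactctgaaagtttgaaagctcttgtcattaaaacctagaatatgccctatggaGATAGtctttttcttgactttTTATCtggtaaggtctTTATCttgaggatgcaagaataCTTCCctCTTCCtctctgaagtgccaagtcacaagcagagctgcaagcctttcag

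Selp held 2 matches to the ETS core, at 249 and 64 bases before the start, and none to the GATA core. Pf4 held 1 ETS match, at 9 bases before the start, and none to the GATA core. Gp9 held 1 GATA match at 43 bases and 2 ETS matches at 240 and 16 bases, and Gp5 held 3 GATA matches at 114, 93 and 77 bases and 2 ETS matches at 55 and 48 bases. No base was shared between a GATA and an ETS match. Of 32851 RefSeq promoters of the same length, 37.4% held a GATA match and 64.1% an ETS match, so that the 6 members with an ETS match among 6 and the 3 with a GATA match among 6 (Gp1bb, Gp9 and Gp5) are a description of letters only.

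Per length of exon, Pf4 was the most abundant member. Expressed as CPM per kilobase of annotated exon, so that genes of different length can be set side by side, its median over the 9 libraries was 67, with a range of 26.7 to 231. Vwf (median 15.1), Itga2b (13.3), Itgb3 (9.4), Selp (8.47), Gp9 (7.05) and Gp5 (6.41) followed, and their ranges overlapped. Clu (1.65) and Gp1bb (1.48) were lowest. For scale, the median was 56.4 for Kit. The value of Gp1bb is uncertain, because 92.9% of its 2087 exon bases are shared with Sept5 or Gm49601, which lie on the same strand, and reads there could be left uncounted or given to a neighbour. For Selp, 14.1% of exon bases overlap noncoding genes on the opposite strand. No exon base of the other 7 members is shared with another annotated gene.

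Of 10 markers of mature megakaryocytes and platelets, 7 had a median under 1 CPM per kilobase, while Gp1ba (median 7.67), F2rl3 (6.44) and Treml1 (1.61) lay within the range of the members' medians. Ppbp, which encodes the chemokine precursor of alpha granules and lies beside Pf4 on chromosome 5 (90768518 to 90770063 for Ppbp and 90772435 to 90773383 for Pf4, mm10), was at 0 to 1.46 CPM per kilobase, and Pf4 exceeded it in all 9 libraries. Tubb1, the platelet β-tubulin, was at 0 to 0.674 and Gp6, the platelet collagen receptor, at 0 to 0.018 CPM per kilobase. The sum of 10 markers of mature megakaryocytes and platelets, led by Gp1ba and F2rl3, was 37.6 to 51.6 CPM in WT, 52.4 to 67.8 CPM in δKO and 33.1 to 49.6 CPM in TKO, and 2 of the 10 were under 1 CPM in every library. Of 10 endothelial markers, whose cells also make von Willebrand factor and P-selectin, 6 were under 1 CPM in every library, and the sum, led by Sele and Kdr, was 10.3 to 18 CPM in WT, 11.3 to 22.6 CPM in δKO and 8.12 to 16.4 CPM in TKO. Cdh5, a defining endothelial gene, was at 0 to 0.31 CPM in WT, 0 in δKO and 0.134 to 0.445 CPM in TKO. The antibodies listed for the lineage gate include none to CD41, CD42 or CD61.

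**Figure D2:**
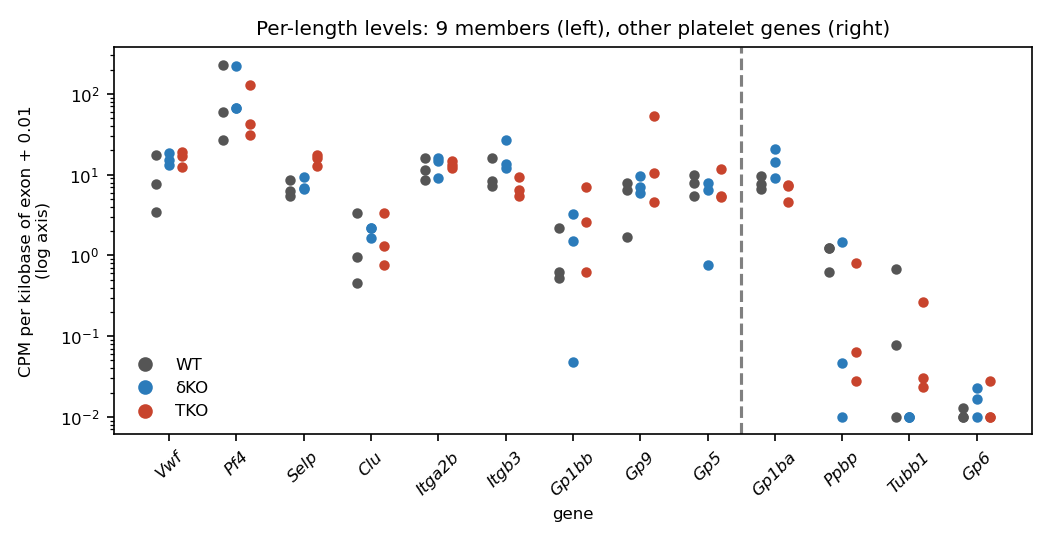
CPM per kilobase of exon plus 0.01, on a log axis, for the 9 members and, right of the dashed line, 4 other platelet genes; each point is 1 of 9 libraries, coloured by genotype. Pf4 spans 26.7 to 231, and Ppbp, Tubb1 and Gp6 lie near or at the offset in several libraries.

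Selp encodes P-selectin, an adhesion receptor of the alpha granule membrane that moves to the platelet surface on activation. It was at 27.6, 23.7 and 37.4 CPM in WT 1, 2 and 3, at 29.4, 30.6 and 41.2 CPM in δKO 1, δKO 2 and the δKO library with no replicate number, and at 78, 71.5 and 56.9 CPM in TKO 1, 2 and 3. All 3 TKO libraries were above all 6 others, a pattern shown by 2.12% of all genes tested. The difference from WT was 2.33-fold (log2 fold change 1.22, SE 0.315, 95% interval 0.53 to 1.91, adjusted p = 1.00, edgeR). The difference from δKO was 2.04-fold (log2 1.03, interval 0.34 to 1.71, adjusted p = 0.465). δKO and WT overlapped, at 1.14-fold (log2 0.19, interval -0.49 to 0.87). DESeq2's Wald test on the same genes called Selp higher in TKO than in WT, with an adjusted p of 0.0429 on all 9 libraries and 0.00257 on the 6 libraries of these groups, rules that called as higher 0.231% of 15994 and 1.16% of 16973 genes given an adjusted p. Against δKO the DESeq2 adjusted p was 0.0671 on all 9 libraries and 0.237 on the 6, and 0.031 on all 9 libraries with no filter on low counts, where 1.98% of 17820 genes given an adjusted p were called higher. Over all 21 alternatives the adjusted p of TKO against WT ran from 0.00156 to 1.00. Leaving out each library in turn moved the log2 fold change from WT between 1.08 and 1.42 and that from δKO between 0.93 and 1.20. The neutrophil marker sum was 170, 3410 and 961 CPM in TKO 1, 2 and 3, below every WT library (5560 to 12900 CPM), and 277 to 12800 CPM in δKO. Of the endothelial markers, Kdr (3.42 to 4.39 CPM in TKO, 0.924 to 2.67 CPM in WT) and Stab2 (1.31 to 8.87 and 0.336 to 0.74 CPM) had all TKO libraries above all WT libraries. That pattern was shown by 6.88% of all genes tested. Unlike Selp, both genes overlapped between TKO and δKO, where Kdr was at 0.7 to 8.3 and Stab2 at 0.0369 to 2.27 CPM. Sele was at 3.21 ± 4.25 CPM in TKO and 11.4 ± 4.83 CPM in WT. The sum of the endothelial markers overlapped between TKO (8.12 to 16.4 CPM) and WT (10.3 to 18 CPM). The sum of 10 LT-HSC markers was 1670 to 2070 CPM in TKO, 1220 to 1430 CPM in WT and 1200 to 2580 CPM in δKO. For Flt3 and Cd48, which the gate excludes, the sum was 26.3 to 49 CPM in TKO, 50.1 to 133 CPM in WT and 12.9 to 76.3 CPM in δKO. The part of the neutrophil, endothelial, LT-HSC and gate-excluded markers in the Selp values was not tested.

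Vwf encodes von Willebrand factor, the ligand of the GPIb-IX-V receptor. It was at 123, 282 and 55.3 CPM in WT, 242, 213 and 295 CPM in δKO, and 305, 272 and 199 CPM in TKO. WT 1 and WT 3 were the lowest of all 9 libraries, while WT 2 lay within the range of δKO and TKO. The log2 fold change from WT was 0.75 in TKO (interval -0.24 to 1.75, adjusted p = 1.00, edgeR) and 0.71 in δKO (interval -0.29 to 1.70, adjusted p = 0.743), and TKO and δKO differed by 0.047 (interval -0.94 to 1.04). The comparison rested on which WT library was included: without WT 2 the log2 fold change of TKO was 1.53 and that of δKO 1.49, and without WT 3 they were 0.35 and 0.31.

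Pf4 encodes platelet factor 4, a chemokine of the alpha granule. It was at 43.1, 167 and 19.2 CPM in WT, 48.5, 159 and 48.3 CPM in δKO, and 30.2, 93.5 and 22.4 CPM in TKO. Replicate 2 was the highest library of each genotype, by 3.87, 3.28 and 3.09 times over the next, and the groups overlapped in all comparisons. Over all genes same-numbered libraries did not deviate together (correlations -0.0359 to 0.0829), so the shared number was not taken as a pairing. The log2 fold change of TKO was -0.65 from WT (interval -2.35 to 1.05) and -0.81 from δKO (interval -2.51 to 0.89), and δKO and WT differed by 0.16 (interval -1.53 to 1.85). The direction of TKO against WT turned without WT 2, at 0.64.

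Clu encodes clusterin, a secreted chaperone also stored in platelets. It was at 3.29, 11.5 and 1.53 CPM in WT, 7.42, 7.39 and 5.68 CPM in δKO, and 4.51, 11.3 and 2.59 CPM in TKO, so that replicate 2 was again highest in WT and TKO and δKO lay within the range of both. TKO differed from WT by 0.17 on the log2 scale (interval -1.71 to 2.06), TKO from δKO by -0.15 and δKO from WT by 0.33. Each of these changed sign when single libraries were left out, with ranges of -0.62 to 1.34, -0.95 to 0.21 and -0.11 to 1.50.

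Pf4 and Clu followed each other across the 9 libraries. On log2 CPM, Pearson's r was 0.864 (exact permutation p = 0.00299, adjusted p = 0.108 over 36 pairs of members) and Spearman's rho was 0.933 (exact permutation p = 0.00075, adjusted 0.027). Without the 2 libraries farthest from the median of Pf4, r was 0.921, and for deviations from each genotype's mean it was 0.904. Vwf and Clu had an r of 0.783 (exact permutation p = 0.00929, adjusted 0.167) and a rho of 0.567, and r was 0.393 without the 2 libraries farthest from the median of Vwf, so that this relation rested on them. Gp1bb and Gp5 had an r of 0.79 and a rho of 0.483 (exact permutation p = 0.0302 and 0.194, adjusted 0.362 and 0.581, r = 0.71 without the 2 farthest libraries), with δKO 1 the lowest library for both. Over the 36 pairs r ran from -0.512 to 0.864 with a median of 0.292, 3 pairs had an unadjusted p under 0.05 for r, and none had an adjusted p under 0.05 for r. The sum of erythroid markers was also highest in replicate 2 of WT (157 CPM) and TKO (80.1 CPM), but in δKO it was highest in replicate 1 (76.9 CPM against 57.7 CPM in replicate 2), and its part in the Pf4 and Clu values was not tested.

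**Figure D3:**
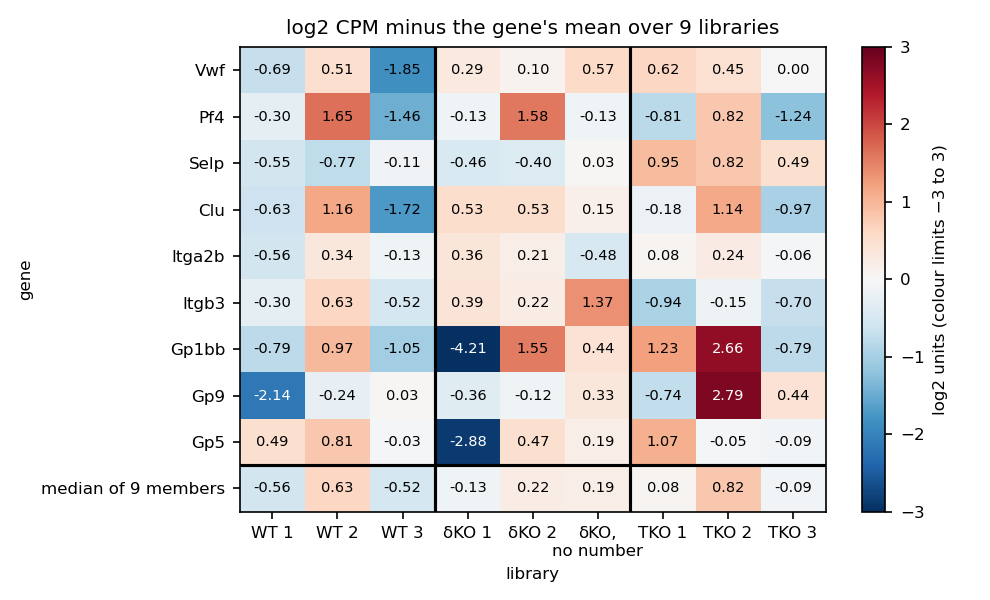
Log2 CPM of each member minus its mean over the 9 libraries, with libraries in columns by genotype and the median over the members in the bottom row; colours are limited to 3 log2 units either way. Selp is positive in all 3 TKO libraries (0.49 to 0.95), Pf4 is highest in replicate 2 of each genotype, and Gp1bb and Gp5 are lowest in δKO 1 (-4.21 and -2.88).

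Itga2b and Itgb3 encode the 2 chains of the fibrinogen receptor, integrin αIIb (CD41) and integrin β3 (CD61), of which β3 also pairs with integrin αV. Itga2b was the steadiest member, at 46.6, 87 and 62.9 CPM in WT, 88.5, 79.6 and 49.1 CPM in δKO, and 72.5, 81.4 and 66.1 CPM in TKO, a 1.9-fold range over all libraries. The groups overlapped throughout. Its log2 fold changes were 0.16 in TKO against WT (SE 0.316, interval -0.53 to 0.85), 0.018 in TKO against δKO (interval -0.67 to 0.71) and 0.14 in δKO against WT (interval -0.55 to 0.84). Those intervals leave out changes of 2-fold or more in either direction.

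Across the 9 libraries Itgb3 and Itga2b had an r of -0.046 and a rho of 0.283 (exact permutation p = 0.908 and 0.463, adjusted 0.972 and 0.794). Without the 2 libraries farthest from the median of Itga2b r was 0.824, but for deviations from each genotype's mean over all 9 it was -0.0128. Itgb3 was at 49.9, 95.6 and 43.1 CPM in WT, 80.6, 71.7 and 159 CPM in δKO, and 32, 55.5 and 38 CPM in TKO. All TKO libraries were below all δKO libraries, a pattern shown by 4.74% of all genes tested, while both groups overlapped with WT. The level in TKO was 0.403 times that in δKO (log2 fold change -1.31, SE 0.412, interval -2.21 to -0.41, adjusted p = 0.465, edgeR), and DESeq2 on all 9 libraries gave an adjusted p of 0.0952. Without the δKO library with no replicate number, the highest of all, the log2 fold change was -0.87. Against WT the log2 fold change was -0.59 in TKO (interval -1.48 to 0.30) and 0.72 in δKO (interval -0.17 to 1.61).

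Gp1bb, Gp9 and Gp5 encode GPIbβ, GPIX and GPV, subunits of the von Willebrand factor receptor. Gp9 was at 1.49, 5.73 and 6.9 CPM in WT, 5.27, 6.22 and 8.52 CPM in δKO, and 4.03, 47.2 and 9.2 CPM in TKO. A single library, TKO 2, was 5.13 times the next TKO library, and TKO 1 lay within the WT range. The log2 fold change of TKO was 2.10 from WT (SE 0.902, interval 0.12 to 4.07, adjusted p = 1.00, edgeR) and 1.59 from δKO (adjusted p = 0.556). Without TKO 2 these were 0.49 and -0.014. δKO and WT differed by 0.50 (interval -1.40 to 2.41).

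Gp5 was at 17.4, 21.7 and 12.1 CPM in WT, 1.64, 17.1 and 14.1 CPM in δKO, and 25.9, 11.9 and 11.6 CPM in TKO. δKO 1 stood apart as the lowest, TKO 1 was the highest, and the groups overlapped. On the log2 scale TKO differed from WT by -0.051 (interval -1.64 to 1.54), TKO from δKO by 0.59 (interval -1.01 to 2.18) and δKO from WT by -0.64 (interval -2.24 to 0.96), and without δKO 1 the latter 2 were 0.077 and -0.13. Gp1bb was at 1.29, 4.51 and 1.07 CPM in WT, 0.0798, 6.75 and 3.1 CPM in δKO, and 5.39, 14.7 and 1.29 CPM in TKO, where δKO 1 held 2 counts. Its log2 fold changes of 1.63, 1.10 and 0.53 in the 3 comparisons had SEs of 1.3, 1.28 and 1.27, and the groups overlapped in each. Without TKO 2 the first 2 were 0.54 and 0.01, without WT 2 the first was 2.58, and without δKO 2 the third turned to -0.52.

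**Figure D4:**
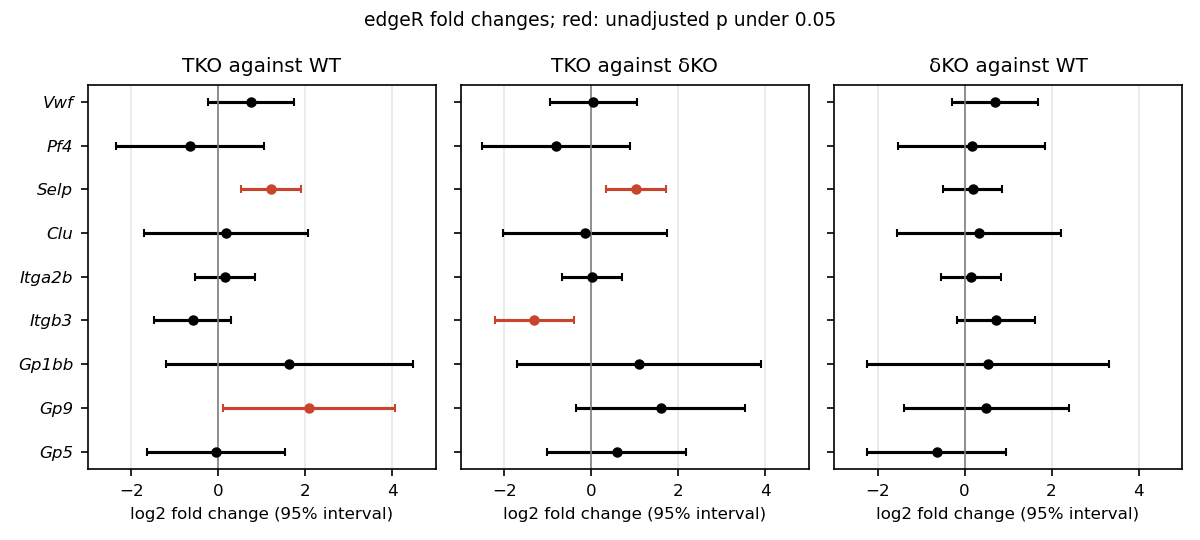
Log2 fold change of each member with its 95% interval in 3 comparisons (edgeR quasi-likelihood fit of all 9 libraries); the vertical line marks no change, and red marks an unadjusted p under 0.05. Intervals leave out 0 for Selp (0.53 to 1.91) and Gp9 (0.12 to 4.07) in TKO against WT and for Selp (0.34 to 1.71) and Itgb3 (-2.21 to -0.41) in TKO against δKO.

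The median over the 9 members was a log2 fold change of 0.17 between TKO and WT, 0.047 between TKO and δKO and 0.33 between δKO and WT, beside 0.017, -0.055 and 0.046 over all genes tested. With upper-quartile scaling these 3 medians of the members were 0.14, 0.19 and 0.17. With genes detected as a covariate they were 0.18, 0.20 and 0.19, and with voom 0.087, 0.014 and 0.60. The estimate was above 0 for 6 and below 0 for 3 members in each TKO comparison, and above 0 for 8 and below 0 for 1 in δKO against WT (7 and 2 with upper-quartile scaling, 6 and 3 with genes detected as a covariate), beside 51.2%, 47.2% and 52.8% of all genes above 0. The majority turned to 4 above and 5 below 0 in TKO against WT without WT 1 and in TKO against δKO without TKO 2. The median of TKO against WT was 1.08 without WT 2 and -0.035 without WT 1, and that of δKO against WT was 1.16 without WT 2 and 0.078 without WT 1. For TKO against δKO it was -0.014 without TKO 2 and 0.21 without TKO 3. The TKO comparisons share the TKO libraries, and both comparisons with WT share the WT libraries.

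A list of 66 other genes of megakaryocytes and platelets, in 4 groups by role, was examined beside the members, and 63 passed the filter. None was called in any comparison by edgeR. At an unadjusted p under 0.05, 1 of the 63 had a higher and 2 a lower level in TKO than in WT, 3 had a higher and 5 a lower level in TKO than in δKO, and 1 had a higher and 2 a lower level in δKO than in WT. Over all genes the shares were 1.68% and 2.5%, 4.6% and 5.56%, and 7.01% in either direction for δKO and WT, so the list's counts were near the background. DESeq2 on all 9 libraries called 0 of them in the comparisons with WT and 1 (Ptger3) in TKO against δKO, where it called as higher 1.16% of 16670 genes given an adjusted p. The list's median log2 fold change was 0.13 for TKO with WT as reference, -0.14 for TKO with δKO as reference and 0.18 for δKO with WT as reference. The first was 0.026 with voom, 0.047 with genes detected as a covariate, 0.027 without WT 1 and 0.28 without WT 2. The second turned to 0.046 with upper-quartile factors, 0.072 with voom and 0.20 without δKO 1, and the third was -0.0037 without δKO 1.

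Among adhesion and signalling receptors, 16 of 18 were tested. In TKO against WT 10 had estimates above 0 and 6 below, and 5 had all TKO libraries above all WT libraries, or 31.2% of them, beside 6.88% of all genes. That share was 6.67%, 11.8% and 13.3% in the granule, cytoskeletal and transcription factor groups. For the receptors it was 12.5% in TKO against δKO and 0% in δKO against WT, beside 6.98% and 4.13% of all genes. Conversely, 12.5% of the receptors had all δKO libraries below all WT libraries, beside 7.39% of all genes. Pear1, a receptor of platelet contact signalling, was at 69.8 ± 6.68 CPM in TKO and 48.5 ± 9.55 CPM in WT (log2 0.53, adjusted p = 1.00, edgeR). F2r, a thrombin receptor gene, was at 245 ± 24.2 CPM in TKO and 144 ± 28.7 CPM in WT (log2 0.76, adjusted p = 1.00, edgeR). Its δKO libraries, at 406, 162 and 102 CPM, overlapped with TKO (log2 0.14 for TKO against δKO). P2ry12, the ADP receptor gene, did not exceed 2.99 CPM. Ptger3, a prostaglandin E2 receptor gene, had all 3 genotypes apart: 14.8, 14.9 and 12.7 CPM in WT, 4.91, 10.9 and 7.81 CPM in δKO, and 20.2, 27.1 and 21.8 CPM in TKO. Of all genes, 6.88% had TKO above WT, 6.98% TKO above δKO and 7.39% δKO below WT in every library. The share with all 3 patterns was not counted. TKO exceeded δKO by 1.55 on the log2 scale (interval 0.51 to 2.58, adjusted p = 0.465, edgeR), and DESeq2 gave an adjusted p of 0.0135. Gp1ba, which encodes the GPIbα chain that binds von Willebrand factor, was at 12.3, 20 and 19.7 CPM in TKO, 38.7, 24.8 and 56.5 CPM in δKO, and 18.2, 26.2 and 20.8 CPM in WT. All TKO libraries lay below all δKO libraries for Gp1ba (log2 -1.21, interval -2.12 to -0.30, adjusted p = 0.465, edgeR), as they did for Itgb3. Mpig6b, an inhibitory receptor gene, was at or near 0 (at most 1.71 CPM).

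All 15 genes of granule contents and granule formation were tested, and 11 had estimates below 0 in TKO against WT and 11 in TKO against δKO, beside 8888 and 9616 of 18205 genes. With voom the second count was 8, and the median log2 fold change of the group in that comparison went from -0.52 to -0.16, or to -0.13 without the δKO library with no replicate number. F13a1, which encodes a chain of coagulation factor XIII that monocytes also make, was at 13.8, 49.9 and 5.53 CPM in TKO, 62.7, 84.5 and 72.1 CPM in δKO, and 89.8, 64.8 and 29.7 CPM in WT. On the log2 scale TKO differed from δKO by -1.66 (adjusted p = 0.465, edgeR) and from WT by -1.41 (adjusted p = 1.00, edgeR). F5, coagulation factor V, was at 21.2 ± 7.64 CPM in TKO and 43.4 ± 14.4 CPM in WT. The macrophage marker sum was 6.16 to 41.9 CPM in TKO, 5.9 to 172 CPM in δKO and 43.7 to 90.2 CPM in WT, and its part in the F13a1 and F5 values was not tested. Angpt1, an angiopoietin that HSCs and megakaryocytes make, was at 293 ± 20.4 CPM in TKO and 177 ± 55.2 CPM in WT (log2 0.73, adjusted p = 1.00, edgeR). Its δKO libraries, at 414, 190 and 158 CPM, overlapped with TKO (log2 0.21 for TKO against δKO). Sparc was at 0.302, 10.4 and 0.0716 CPM in WT, with δKO libraries at or under 0.125 CPM and TKO libraries at 0.516, 2.96 and 2.46 CPM. Slc35d3 and Hps1, both needed for dense granules, each had 1 δKO library far above the rest, at 27.7 CPM in the library with no replicate number and at 146 CPM in δKO 1.

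Of 18 cytoskeletal and cytoplasmic signalling genes, 17 were tested. Plek, which encodes pleckstrin, a protein kinase C substrate of platelets and leukocytes, was at 58.5, 83.8 and 97 CPM in TKO, below every WT (122 to 176 CPM) and every δKO library (105 to 215 CPM), a pattern shown by 1.69% of all genes tested. The neutrophil marker sum was also lower in every TKO library (170 to 3410 CPM) than in every WT library (5560 to 12900 CPM), with δKO at 277 to 12800 CPM, and its part in the Plek values was not tested. The log2 fold change of Plek was -0.84 from WT (adjusted p = 1.00, edgeR) and -0.83 from δKO (adjusted p = 0.465). Tbxas1, thromboxane synthase, was at 143, 152 and 164 CPM in TKO, above 56, 118 and 88.1 CPM in WT (log2 0.81, adjusted p = 1.00, edgeR). The δKO libraries of Tbxas1, at 171, 118 and 111 CPM, overlapped with TKO (log2 0.20 for TKO against δKO). Ptgs1, the cyclooxygenase upstream of thromboxane synthase, was at 137 ± 3.62 CPM in TKO and 182 ± 22.7 CPM in δKO (log2 -0.41, adjusted p = 0.521, edgeR). Flna, filamin A, was at 340 ± 26.7 CPM in TKO and 611 ± 354 CPM in δKO, where the library with no replicate number was at 1020 CPM and the others at 442 and 373 CPM (log2 -0.85, or -0.26 without that library, adjusted p = 0.467, edgeR). Fermt3, which encodes the integrin activator kindlin-3, was at 429, 151 and 295 CPM in δKO and 175 ± 9.33 CPM in WT (log2 0.73, or 0.35 without δKO 1, adjusted p = 0.699, edgeR). Pdlim1 was at 65.4 ± 9.74 CPM in TKO and 44.7 ± 7.56 CPM in WT, and Gng11 at 38.7, 13.2 and 7.3 CPM in δKO and 9.38 ± 3.97 CPM in WT (log2 1.07, or 0.13 without δKO 1).

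All 15 transcription factor genes were tested. Lyl1, a basic helix-loop-helix factor of HSCs, was at 66.5, 89 and 63.3 CPM in TKO, 138, 96.4 and 172 CPM in δKO, and 161, 84.9 and 113 CPM in WT (log2 -0.89 from δKO, adjusted p = 0.465, and -0.71 from WT, adjusted p = 1.00, edgeR). Meis1, a homeobox factor, was at 409 ± 61.3 CPM in TKO and 252 ± 60.3 CPM in WT (log2 0.70, adjusted p = 1.00, edgeR). Its δKO libraries, at 552, 251 and 157 CPM, overlapped with TKO (log2 0.36 for TKO against δKO). In δKO against WT all 15 had estimates above 0, with a median log2 fold change of 0.34, beside 52.8% of all genes above 0. Without δKO 1 this count was 6 of 15 and the median -0.067, and with upper-quartile scaling 10 of 15. Gata1, which drives megakaryocyte and erythroid differentiation, was at 166 CPM in δKO 1 against 16.3 and 1.03 CPM in the other δKO libraries. Ldb1, a cofactor of GATA complexes, was at 136 ± 37.9 CPM in δKO, 123 ± 8.95 CPM in TKO and 92.6 ± 11.2 CPM in WT, and Mafg, a partner of NF-E2, at 80.3 ± 16, 60.2 ± 2.67 and 59 ± 3.91 CPM.

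**Figure D5:**
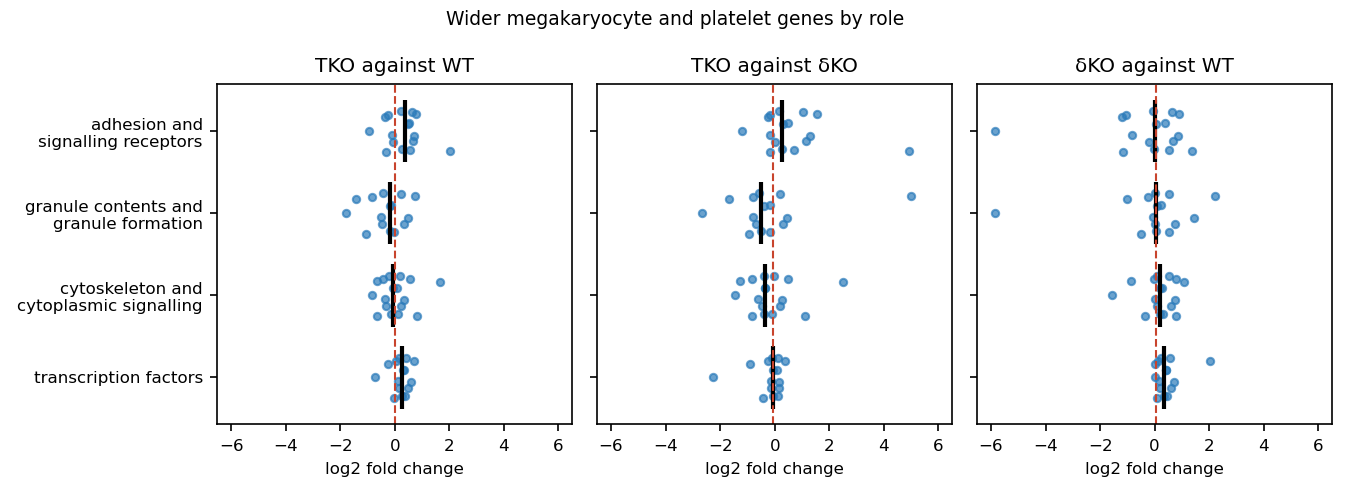
Log2 fold changes of 63 other megakaryocyte and platelet genes by role in 3 comparisons; each point is a gene, black bars are the medians of each role and the red dashed line is the median of all genes tested. Medians of the roles lie between -0.52 and 0.38, and points beyond 4 log2 units either way are Sparc and Mpig6b, both at or near 0 in δKO.

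The genes most like the members in pattern were sought among 10774 genes averaging 5 CPM or more, by Pearson's r of log2 CPM over the 9 libraries, whose depth and marker sums differ as given above. For Vwf they were E2f4 (r = 0.944), Dus3l (0.93) and Mtss1l (0.912), for Itga2b Tia1 (0.955), Ryk (0.938) and Pole4 (0.937), and for Pf4 Trnt1 (0.907), Mpi (0.885) and Palb2 (0.873). None of these 9 genes was a member or on the wider list. Each r was picked as among the highest of 10774 over only 9 libraries, so high values can arise without any relation. Whether these genes share regulation with the members was not tested.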

How the data were processed

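Donor LT-HSCs were sorted from pooled recipient marrow and RNA was amplified with Ovation RNA-Seq V2, which does not mark strand. The authors deposited raw counts per gene; the submitters' processing notes name Trim Galore 0.3.7, FastQC 0.11.4, STAR 2.5.1b, DESeq2 and mm10, and the study's methods give STAR as aligner and read counter. The annotation release is not given in the sources used here, and the authors' normalised values were not used. All 9 count columns were used. 1 δKO column bears a replicate number that no label gives, and it was used as δKO only. Gene symbols were matched by Ensembl ID, and coordinates and exon lengths come from GENCODE vM21 (mm10). Genes were kept by filterByExpr (minimum count 10, minimum total 15), scaled by TMM and tested with edgeR 4.0.16 (quasi-likelihood, all 9 libraries, 6 residual degrees of freedom, common BCV 0.805, the coefficient of variation between replicates) with Benjamini-Hochberg adjustment over 18205 genes; a call needed an adjusted p under 0.05 and more than 2-fold, the study's criteria. Alternatives used DESeq2 1.42.0, limma 3.58.1 (voom), other scalings and filters, and each library left out. The fits were tested on simulated data with planted changes larger than those of the members, which does not measure the power to call smaller changes. Exact permutation tests were two-sided. The members, lists and named genes were chosen with earlier results of these data known; named are all members, the 3 genes of smallest p per role and comparison, the 3 most alike genes for Vwf, Itga2b and Pf4, 2 markers per list, the 3 PI3K genes, and Kit, Slamf1, Flt3 and Cd48. Further marker genes (Ppbp, Tubb1, Gp6, Treml1, Cdh5, Stab2, Cd3e, Cd3g and Cd8a) were named after their values were seen. Library totals were 31300343 to 60386097 counts; counting error is only part of the spread between libraries.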

Additional observations from a re-analysis of the deposited data

How the results depend on the processing

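Of 27 member fold changes, 13 kept their sign under all 21 alternatives, Selp among them, and Gp1bb had no value when 10 counts in every library were required. DESeq2 called 1 member (Selp) in TKO against WT with and without the filter on low counts, and 1 in TKO against δKO on all 9 unfiltered libraries; the unfiltered runs were added after seeing the data. Genes called in TKO against WT, 1 by edgeR, were 63 and 444 by DESeq2 on all 9 and on 6 libraries, 125 and 574 unfiltered, 9 by edgeR on the 2 groups and 12 by voom; in TKO against δKO, 0 by edgeR (838 higher and 1013 lower at an unadjusted p under 0.05), they were 335 and 122, and 551 and 267 unfiltered; in δKO against WT, 1 by edgeR, 79 and 80, 191 and 194 unfiltered, and 0 on the 2 groups. Leaving out 1 library at a time gave 1 to 4 genes in TKO against WT. Of the wider list DESeq2 called 1 in TKO against δKO (1 and 2 unfiltered) and 1 in δKO against WT unfiltered. Its median moved in TKO against δKO to 0.046 with upper-quartile factors and 0.072 with voom, and in δKO against WT to 0.022, 0.016 and, with genes detected as a covariate, 0.054. Upper-quartile factors moved the median of all genes in δKO against WT from 0.046 to -0.10. Leaving out 1 library at a time, the members' median ran from -0.035 to 1.08 in TKO against WT, from -0.014 to 0.21 in TKO against δKO, and from 0.078 to 1.16 in δKO against WT (in both comparisons with WT, lowest without WT 1, highest without WT 2), and that of the wider list from 0.027 to 0.28, from -0.21 to 0.20 and from -0.0037 to 0.25 in TKO against WT, in TKO against δKO, and in δKO relative to WT (0.28 without WT 2, 0.20 and -0.0037 without δKO 1). Same-numbered libraries did not deviate together (correlations -0.0359 to 0.0829), so the numbers were not taken as pairs; with the replicate block the members' median in TKO against δKO was 0.56, and signs turned for Gp5 in TKO against WT (0.059), Itga2b in TKO against δKO (-0.17) and Gp1bb in δKO against WT (-1.10). With genes detected as a covariate signs turned for Gp5 (0.18) and Clu (-0.10) in TKO against WT, Itga2b in TKO against δKO (-0.0073), and Gp9 (-0.17) and Clu (-0.076) in δKO against WT; with voom for Clu in TKO against WT (-0.064); with upper-quartile factors for Itga2b in δKO against WT (-0.019). Leaving out 1 library at a time also turned signs, with ranges in TKO against WT of -0.54 to 0.16 (Gp5), -0.035 to 0.42 (Itga2b), -1.54 to 0.64 (Pf4) and -0.62 to 1.34 (Clu), in TKO against δKO of -0.014 to 2.08 (Gp9), -0.20 to 0.18 (Itga2b), -0.092 to 0.20 (Vwf), -1.70 to 0.0041 (Pf4) and -0.95 to 0.21 (Clu), and in δKO against WT of -0.52 to 1.48 (Gp1bb), -0.05 to 0.40 (Itga2b), -0.65 to 1.45 (Pf4) and -0.11 to 1.50 (Clu). The cause of these changes was not tested.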
